A study of Mus musculus with 9 samples.

Results

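The genes described here encode 6 inhibitory or sialic acid binding receptors of mouse leukocytes, namely Siglecf, Siglece, Siglecg, Siglec1, Cd33 and Pirb. They were chosen by symbol, each was read by 1 probe set that names it alone, and they are 6 of the 19938 genes measured. The arrays profiled low-density bone marrow cells, in which blood progenitors are enriched, from pooled marrow of Balb/c mice. Every group, the cells before IL-5 included, had spent 4 days in medium with the progenitor cytokines SCF and FLT3L, at 100 ng/mL. RNA came from 3 arrays before interleukin 5 (IL-5), 3 after 4 days of IL-5 and 3 after 10 days of IL-5, 9 arrays in all. Whether the 3 arrays within each group stem from different cultures is not stated in the labels, and the marrow was pooled, so the p-values reflect the spread among these arrays, possibly a technical one. Cells of equal age but without IL-5 were not analysed here, which means that IL-5 and time in culture cannot be told apart.

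Siglecs are receptors of the immunoglobulin family that bind sialic acids on glycans. Siglec-F, Siglec-E and Siglec-G carry tyrosine motifs of the ITIM type in their tails, which, once phosphorylated by SRC family kinases, recruit the phosphatases SHP-1 and SHP-2 and damp activating signals. PIR-B, the product of Pirb, also bears ITIMs and binds MHC class I molecules, and it is paired with near-identical activating receptors, the PIR-A proteins, that signal through the Fc receptor gamma chain. Siglec-F is the surface marker by which mouse eosinophils are commonly recognised, and its ligation promotes eosinophil death. Siglec-1, or sialoadhesin, is a macrophage adhesion receptor without an ITIM. Mouse CD33 is a myeloid Siglec.

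The Siglec genes other than Siglec1 lie close together on chromosome 7 in the order Siglecf, Siglecg, Cd33 and Siglece, with Pirb elsewhere on that chromosome and Siglec1 on chromosome 2, per the GRCm38.p6 RefSeq gene table. RefSeq promoter entries of GRCm38.p6 were found for 5 of the 6 members. The 250 bases before the start are shown for Siglecf and Pirb, the pair that rose in every comparison. They are also shown for Cd33 and Siglece, which rose at least 2-fold at day 4 alone. At day 10 Cd33 and Siglece stood above their start by less than 2-fold. Capitals mark the letters GAGGAA, or TTCCTC where they lie on the other strand, which contain the core bound by the myeloid factor PU.1. Copies of that core, GGAA, outside these letters are not marked, and the run shared by Siglecf and Cd33 below holds a copy.
Siglecf, chr7:43351091-43351340, plus strand: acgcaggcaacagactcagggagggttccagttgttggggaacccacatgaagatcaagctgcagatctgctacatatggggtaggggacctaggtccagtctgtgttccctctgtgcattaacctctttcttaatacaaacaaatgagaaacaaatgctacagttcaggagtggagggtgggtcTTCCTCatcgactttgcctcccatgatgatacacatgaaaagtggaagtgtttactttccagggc
Pirb, chr7:3720383-3720632, minus strand: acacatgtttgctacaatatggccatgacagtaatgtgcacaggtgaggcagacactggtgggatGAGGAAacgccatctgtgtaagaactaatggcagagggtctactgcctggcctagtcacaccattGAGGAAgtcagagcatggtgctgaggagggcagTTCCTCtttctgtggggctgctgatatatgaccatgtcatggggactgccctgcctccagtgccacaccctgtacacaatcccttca
Cd33, chr7:43533172-43533421, minus strand: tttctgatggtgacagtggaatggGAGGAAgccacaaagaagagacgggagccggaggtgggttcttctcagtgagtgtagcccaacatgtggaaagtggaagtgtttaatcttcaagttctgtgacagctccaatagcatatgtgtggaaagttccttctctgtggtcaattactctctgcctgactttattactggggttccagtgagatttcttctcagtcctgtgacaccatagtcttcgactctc
Siglece, chr7:43660162-43660411, minus strand: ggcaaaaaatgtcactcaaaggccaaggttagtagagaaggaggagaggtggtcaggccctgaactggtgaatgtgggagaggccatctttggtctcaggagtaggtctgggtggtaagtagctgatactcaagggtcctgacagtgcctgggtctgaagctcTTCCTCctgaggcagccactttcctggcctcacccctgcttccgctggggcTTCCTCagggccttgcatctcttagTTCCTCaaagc
The letters GAGGAA, read on both strands, stood 1 time in the Siglecf window, 3 times in that of Pirb, 1 time in that of Cd33 and 3 times in that of Siglece. They occurred in 23.3% of 32851 RefSeq promoter windows of the same length. The GATA letters AGATAA or AGATAG and TGATAA or TGATAG (together in 26.5% of all windows) and the C/EBP letters TTGCNNAA (in 9.56%) were not in the windows of these 4 genes on either strand. Siglecg, not shown, held GAGGAA 2 times in the first of its windows and 0 times in the second, and no GATA or C/EBP letters. A match of letters is a description and not a binding site.

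The windows of Siglecf and Cd33 held an identical run of 16 bases on the strand of each gene. It lay 27 to 12 bases before the Siglecf start and 157 to 142 bases before the Cd33 start, and it is shown in capitals with 10 bases on either side.
Siglecf: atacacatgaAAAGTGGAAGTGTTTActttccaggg
Cd33: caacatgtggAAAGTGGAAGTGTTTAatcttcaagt
Of 32851 promoter windows, these 2 were the ones that held that run on either strand. In the other 13 pairs of member windows compared, with 2 windows for Siglecg, the longest shared run had 10 bases. The genes with the shared run had unlike courses, as their values below show.

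Eosinophil markers checked the cultures first. All 7 of 7 listed eosinophil markers rose at both days, and their mean log2 signal ran from 7.13 to 7.36 before IL-5, from 10.51 to 10.64 at day 4 and from 12.48 to 12.54 at day 10. Other cells were present as well. Macrophage markers (8 of 8 measured) lay at 5.96 to 6.18 before IL-5, 8.51 to 8.62 at day 4, and 7.88, 7.69 and 8.65 in day 10 replicates 1, 2 and 3. B cell markers (6 of 7 measured) lay at 8.42 to 8.56, then 6.15 to 6.43, then 5.21 to 5.26. In such bulk samples, fewer cells of a type and less RNA per cell cannot be told apart. Arrays of a group correlated across genes at 0.991 to 0.996 and arrays of different groups at 0.927 to 0.969, and array medians ran from 5.67 to 5.75.

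By day 4 of IL-5, 5 of the 6 receptor genes had risen, Siglec1 by far the most, and 0 had fallen, where to rise or fall means an adjusted p under 0.05 and at least a 2-fold change. Among all genes 3.42% rose and 2.11% fell. By day 10 the genes that stood higher than before IL-5 were Siglecf, Pirb, Siglec1 and Siglecg, 4 of 6, against 4.83% of all genes, and 0 were lower, against 9.4%. Between the days, Siglecf, Siglecg and Pirb rose (2.44% of all genes did), and Siglec1 fell (3.98%). The arrays of the 2 groups compared did not overlap for any member in any of the comparisons, a separation seen in 43.6% of all genes for day 4, in 49.7% for day 10 and in 44.2% from one day to the other. By adjusted p alone, with no minimum fold, Siglecg was also lower at day 4 (20% of all genes were), Siglece and Cd33 were higher at day 10 (14.8%) and both were lower between the days (20.2%). The members were picked with earlier results in view, so these shares describe them and carry no test of the list.

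**Figure D1:**
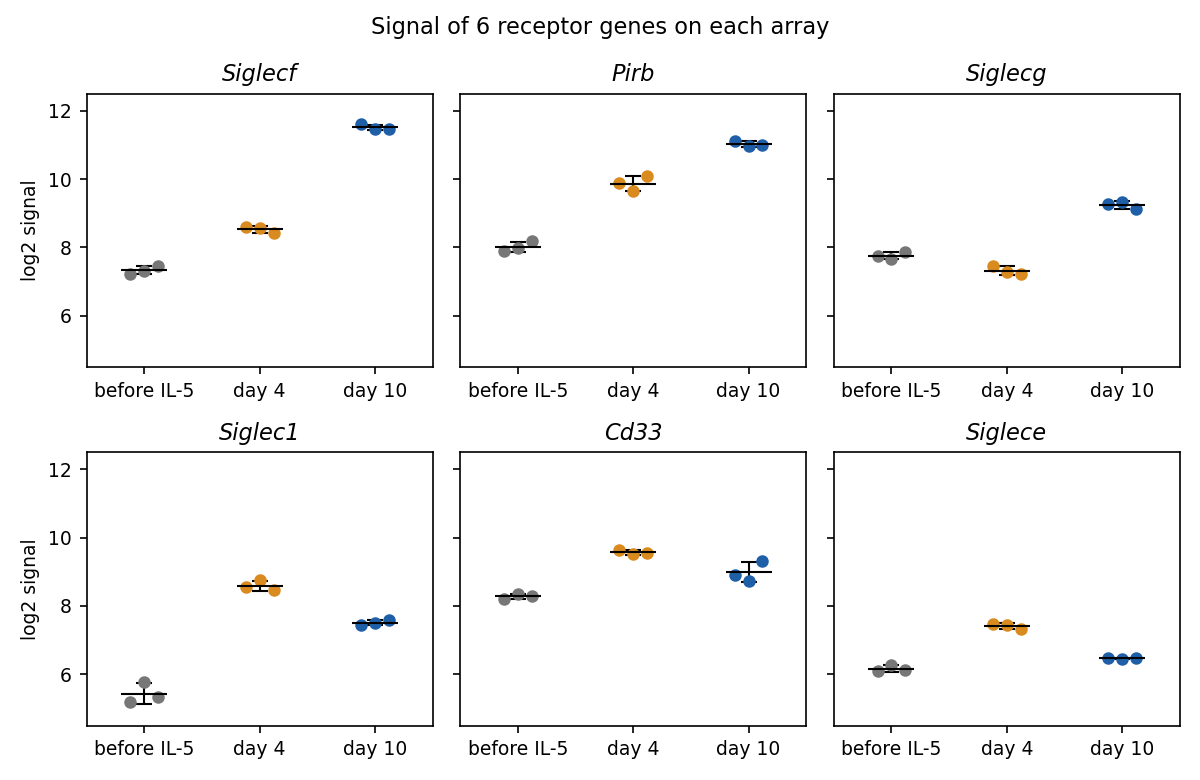
Log2 signal of the 6 genes on each array (points), with the mean and SD of 3 arrays (bars), in the 3 groups. Siglecf and Pirb climb at both steps, Siglecg dips and then climbs, and Siglec1, Cd33 and Siglece peak at day 4.

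Siglecf rose at both steps and ended 18.0-fold above its start. Its log2 signal was 7.24, 7.32 and 7.46 before IL-5, 8.61, 8.56 and 8.41 at day 4, and 11.6, 11.46 and 11.47 at day 10. The groups were ordered without overlap, and the arrays within each group lay close together. The group means were 7.34 ± 0.115, 8.53 ± 0.103 and 11.51 ± 0.0812 (SD, n = 3). The log2 change was 1.19 ± 0.103 (SE) by day 4 (adjusted p = 2.53e-06), 2.98 from day 4 to day 10 (adjusted p = 7.94e-10) and 4.17 over the whole course (adjusted p = 1.68e-11). The second interval, of 6 days against 4, added more than the first, with a difference of 1.80 (95% interval 1.41 to 2.19, adjusted p = 1.22e-05). Siglecf ranked number 513 among the rising genes at day 4 but number 29 at day 10, of 19938.

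Pirb, the inhibitory receptor for MHC class I, was the other gene to rise at every step. Its log2 signal was 7.89, 7.99 and 8.17 before IL-5, 9.89, 9.64 and 10.08 at day 4, and 11.11, 10.96 and 10.99 at day 10. The means were 8.02 ± 0.146, 9.87 ± 0.220 and 11.02 ± 0.0811 (SD, n = 3), with no overlap between groups. Pirb rose by 1.85 to day 4 (3.61-fold, adjusted p = 2.91e-07), by 1.15 from then to day 10 (2.23-fold, adjusted p = 1.26e-05) and by 3.01 in all (8.03-fold, adjusted p = 1.08e-09). Its larger step came first: the second interval minus the first was -0.70 (95% interval -1.17 to -0.23, adjusted p = 0.0424). That difference did not pass when any of 6 arrays was left out, namely before IL-5 replicate 1 (adjusted p = 0.0797) or 2 (0.0727), day 4 replicate 1 (0.136) or 3 (0.244), or day 10 replicate 2 (0.075) or 3 (0.064).

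The activating PIR-A genes were not measured one by one. A pair of probe sets named the same 6 genes each, Pirb and Pira genes among them, and were tested over the 23410 probe sets that carry a symbol. The first of the pair read 9.13, 9.22 and 9.22 before IL-5, 10.3, 10.46 and 10.46 at day 4, and 11.83, 11.8 and 11.57 at day 10. Its log2 change was 1.22 at day 4 (adjusted p = 2.9e-06) and 2.55 at day 10 (adjusted p = 1.69e-09). The other probe set gave 1.42 (adjusted p = 3.37e-07) and 2.65 (adjusted p = 4.82e-10). PIR-A and PIR-B mRNA cannot be told apart in these probe sets, and since the genes are near-identical the values of the probe set that names Pirb alone are uncertain to that extent.

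Siglecg, known as a receptor that restrains signalling in B cells, had the opposite order of steps. Its log2 signal was 7.75, 7.66 and 7.87 before IL-5, 7.46, 7.3 and 7.21 at day 4, and 9.28, 9.33 and 9.12 at day 10. Day 4 was lowest and day 10 highest, without overlap. At day 4 it stood 1.36-fold under its start, with a log2 difference of -0.44 ± 0.108 (SE), which had an adjusted p of 0.00724 but did not reach 2-fold. It then rose by 1.92 (3.79-fold, adjusted p = 3.98e-08) and ended 1.48 above its start (2.80-fold, adjusted p = 1.4e-07). The second interval exceeded the first by 2.36 (95% interval 1.95 to 2.77, adjusted p = 1.65e-06). In the same arrays, 6 of 6 measured B cell markers fell at day 4 and 6 of 6 at day 10, so that at day 10 Siglecg was at its highest where the B cell markers were at their lowest. None of the B cell markers had a group mean under 4.66, the lower quartile of all gene means. The part of B cells in the Siglecg values was not tested.

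**Figure D2:**
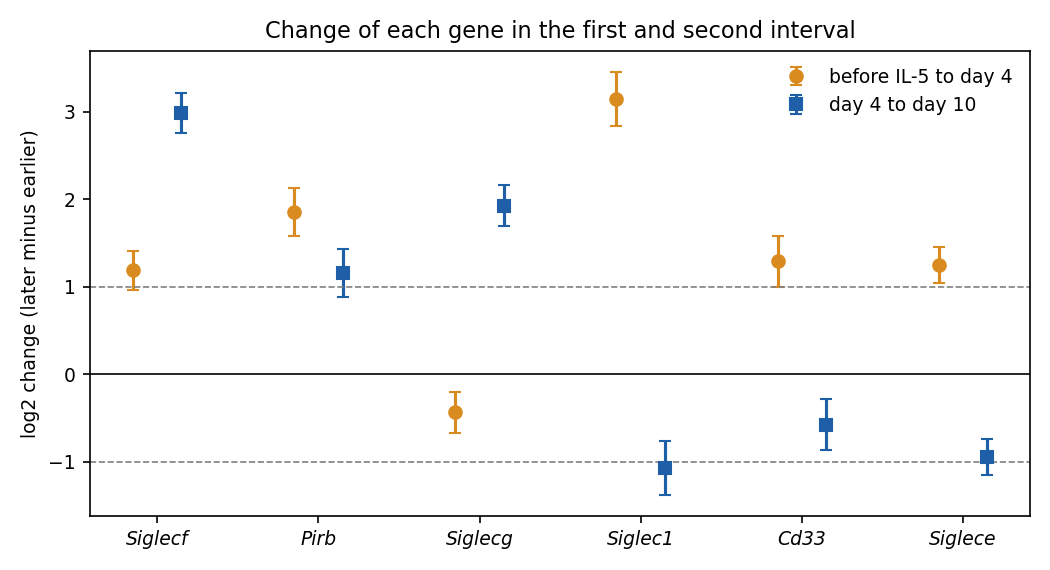
Log2 change of each gene from before IL-5 to day 4 (circles) and from day 4 to day 10 (squares), with 95% intervals from the fit. Dashed lines mark a 2-fold change. Siglecf and Pirb lie above 0 in both intervals. The sign differs between the intervals for Siglecg (-0.44 and 1.92), Siglec1 (3.15 and -1.07), Siglece (1.25 and -0.95) and Cd33 (1.29 and -0.58), and of the negative values only that of Siglec1 passes the 2-fold line.

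Siglec1, the macrophage adhesion receptor, made the largest step of the 6 by day 4. Its log2 signal was 5.2, 5.77 and 5.33 before IL-5, 8.54, 8.75 and 8.46 at day 4, and 7.45, 7.49 and 7.6 at day 10. The arrays before IL-5 were the most scattered, and no groups overlapped. Siglec1 rose by 3.15 ± 0.142 (SE) to day 4, which is 8.86-fold (adjusted p = 1.25e-08), and ranked number 26 of 19938 among rising genes there. It then fell by 1.07 (2.10-fold, adjusted p = 7.15e-05) and still stood 2.08 above its start at day 10 (4.22-fold, adjusted p = 8.21e-08). The fall lay close to the 2-fold limit and did not reach it after quantile normalization (-0.97) or without day 4 replicate 2 (-0.99). The second interval differed from the first by -4.22 (95% interval -4.75 to -3.68, adjusted p = 1.22e-07).

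Macrophage markers also rose, 7 of 8 at day 4 and 6 of 8 at day 10. Their median log2 change was 2.84 and then 1.97 (over all genes -0.11 and -0.07). Between the days 1 of the 8 fell. Before IL-5 the group mean of the marker Mertk was under 4.66, and none was under it later. The part of macrophage number in the Siglec1 values was not tested. Within day 10, Siglec1 differed little, at 7.45, 7.49 and 7.6 in replicates 1, 2 and 3, beside macrophage marker means of 7.88, 7.69 and 8.65. The marker mean of replicate 3 lay above those of the day 4 arrays (8.51 to 8.62), in which Siglec1 was higher. Replicate 3 was highest in both, and also in several other marker lists, which are given with Cd33 below. Without that array Siglec1 stood 2.04 above its start and 1.11 under day 4.

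Cd33 and Siglece, both myeloid Siglecs, rose at day 4, and at day 10 they lay between their start and day 4. The log2 signal of Cd33 was 8.21, 8.34 and 8.29 before IL-5, 9.64, 9.51 and 9.55 at day 4, and 8.91, 8.74 and 9.32 at day 10. Day 10 replicate 3 stood above the other arrays of its group. Cd33 rose by 1.29 ± 0.133 (SE) to day 4 (2.44-fold, adjusted p = 9.92e-06). From day 4 to day 10 it differed by -0.58 (95% interval -0.87 to -0.29, adjusted p = 0.00451), and at day 10 it stood 0.71 above its start (0.42 to 1.00, adjusted p = 0.00062). These later differences were under 2-fold. The array with the highest Cd33 at day 10 was also the one with the most macrophage marker signal (8.65 against 7.69 and 7.88). It was highest of its group as well for markers of neutrophil precursors (8.66 against 7.13 and 7.56), neutrophils (10.46 against 9.97 and 10.25) and mast cells and basophils (6.76 against 6.3 and 6.6). By less, it was also highest for markers of dendritic cells (6.58 against 6.48 and 6.52) and B cells (5.26 against 5.21 and 5.24). The part of any of these cells was not tested. Without that array, Cd33 stood 0.55 above its start and 0.74 under day 4.

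Siglece, the ITIM receptor best known from neutrophils, had log2 signals of 6.1, 6.27 and 6.13 before IL-5, 7.48, 7.44 and 7.33 at day 4, and 6.47, 6.44 and 6.49 at day 10. Its day 10 arrays lay just above those before IL-5 and well under those of day 4. It rose by 1.25 ± 0.0949 (SE) to day 4 (2.37-fold, adjusted p = 8.14e-07). The later difference was -0.95 (95% interval -1.16 to -0.75, adjusted p = 6.37e-06), just short of 2-fold, and the difference over the whole course was 0.30 (0.09 to 0.50, adjusted p = 0.0229). The second interval differed from the first by -2.20 (95% interval -2.55 to -1.84, adjusted p = 1.02e-06), as it did for Cd33 by -1.87 (-2.37 to -1.37, adjusted p = 7.66e-05). Neutrophil markers, 4 of 7 of which rose at day 4 and 3 of 7 at day 10 (over all genes 3.42% and 4.83%), had mean log2 signals of 9.06 to 9.32, then 10.46 to 10.58, then 9.97 to 10.46. These markers split between the days, when 2 of 7 rose and 3 fell (over all genes 2.44% and 3.98%), with a median log2 change of 0.04. Dendritic cell markers lay at 7.78 to 7.93, then 9.2 to 9.27, then 6.48 to 6.58. Macrophage markers lay at 5.96 to 6.18, then 8.51 to 8.62, then 7.69 to 8.65. The part of neutrophils, dendritic cells or macrophages in the Siglece values was not tested.

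**Figure D3:**
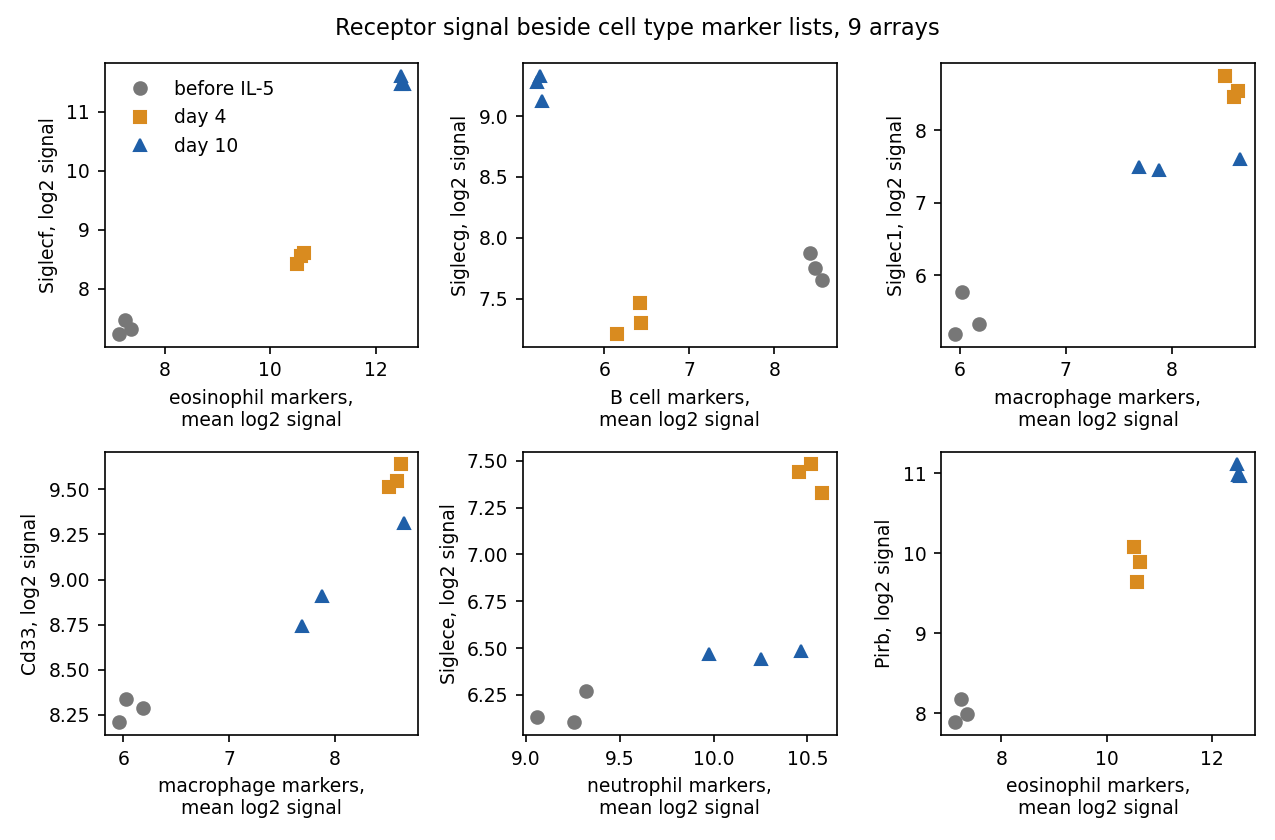
Log2 signal of a receptor gene against the mean log2 signal of a cell type marker list, 1 point per array, with the time of IL-5 given by colour and shape. Siglecg is highest where B cell markers are lowest (5.21 to 5.26), and the day 10 array with the most macrophage marker signal (8.65) has the highest Cd33 of its group (9.32).

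Tested as a difference between the intervals by adjusted p alone, the change in the second interval exceeded that in the first for Siglecf and Siglecg. It was below that in the first for Siglec1, Siglece, Cd33 and Pirb. Pirb still rose in both intervals, and its difference did not pass in 6 of 9 fits with 1 array left out. Over all genes the difference was positive in 7.89% and negative in 9.37%. The same sequence of calls over the 3 comparisons as in Siglecf and Pirb was found in 91 of 19938 genes (0.456%). That of Cd33 and Siglece was found in 115 genes (0.577%), that of Siglecg in 361 (1.81%), and that of Siglec1 in 19 (0.0953%). Over the 9 arrays, which share 3 groups, Siglecf correlated with Pirb at 0.924 and with Siglecg at 0.875. Siglec1 correlated with Cd33 at 0.959 and with Siglece at 0.887, and Siglece with Cd33 at 0.909. Siglecf and Siglece had a correlation of -0.01, and all these values describe 9 points that fall into 3 groups.

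In the gene table, 13 other protein-coding genes lie from Siglecf to Siglece, of which 12 were measured. At day 4, 0 of those 12 rose or fell, with log2 changes from -0.61 to 0.26 and a median of -0.10, against 3.42% higher, 2.11% lower and a median of -0.11 over all genes. Siglecg, at -0.44, lay within that range, and Siglecf, Cd33 and Siglece lay above it. The difference between the Siglec genes and the genes among them was not tested. At day 10, 0 of the 12 rose and 1 fell, against 4.83% higher and 9.4% lower over all genes. The gene that fell was Nkg7, a gene of cytotoxic lymphocyte granules, with a log2 change of -2.57 (adjusted p = 2.61e-09). At that time Siglece, at 0.30, was close to the highest of the 12, Vsig10l at 0.28. Nkg7 was named after its value was seen. Siglecf and Siglecg are adjacent in that order, and between them the change over the whole course ran from 4.17 to 1.48.

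**Figure D4:**
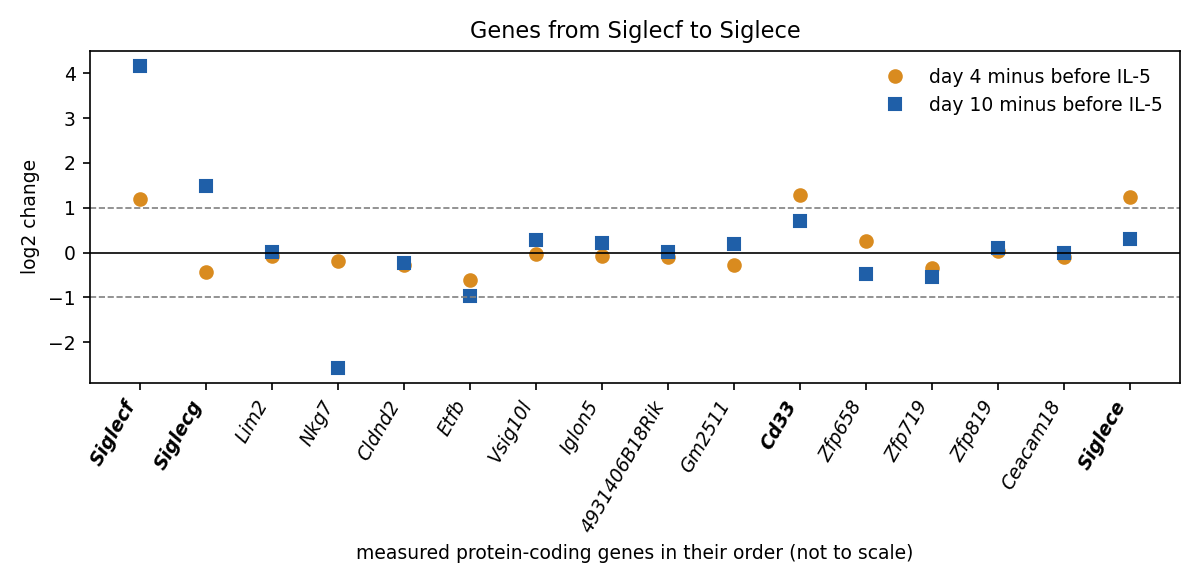
Log2 change of the 16 measured protein-coding genes from Siglecf to Siglece in their order along chromosome 7, at day 4 (circles) and day 10 (squares), both against before IL-5. Members are in bold and dashed lines mark a 2-fold change. The 12 genes that are no members lie between the lines at day 4, and at day 10 only Nkg7 (-2.57) lies outside.

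Genes whose values over the 9 arrays ran most like those of each member were sought among 3375 other genes called at least 1 time. Nearest to Siglecf were the carboxypeptidase gene Cpd, vinculin (Vcl), the inositol phosphatase Inpp5j, the cytokine signalling inhibitor Cish, and Rnf144b, all at r of 0.999. An r over 0.95 was found for 520 genes with Siglecf and for 323 with Pirb, and for 93 to 109 with each of the other members. Nearest to Pirb were the phosphatase CD45 (Ptprc, 0.997), B430306N03Rik, Tent5a, Adgre4 and Mxd1. Nearest to Siglecg were the lymphoid factor Ikzf3 (0.997) and the B cell adaptor Bank1 (0.996), followed by Tnik, I730030J21Rik and the channel Aqp9. Ikzf3 and Bank1 rose by 2.09 and 2.97 over the course while the 6 B cell markers had a median log2 change of -3.35. Nearest to Siglec1 were the cholesterol transporter Npc1 (0.992), Icosl, Gm2a, Kcnk6 and Ceacam1. Nearest to Cd33 were Tmem106a (0.995), transferrin (Trf), Fam20c, Apobec1 and Sbf2, and nearest to Siglece were the collagen receptor Ddr1 (0.994), Etv3, Pfkfb3, the cytokine Il1b and Nudt17.

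Of 4 other measured Siglec genes, 1 rose and 0 fell at day 4, and 1 rose and 2 fell at day 10. Over all genes 3.42% rose and 2.11% fell at day 4, and 4.83% and 9.4% at day 10. The gene that rose at day 4 was Siglech, a receptor of plasmacytoid dendritic cells. Its mean went from 7.88 ± 0.140 to 10.01 ± 0.155 and then to 6.74 ± 0.192 (SD, n = 3), so that it rose by 2.13 (adjusted p = 1.05e-07) and fell by 3.28 between the days (adjusted p = 1.57e-09). At day 10 Siglech was lower than before IL-5, with a log2 change of -1.15 (adjusted p = 6.05e-06). Plasmacytoid dendritic cell markers, Siglech included, had mean log2 signals of 7.86 to 7.95, then 8.91 to 8.93, then 6.23 to 6.5. Cd22, a B cell Siglec, fell by 1.07 to day 10 (adjusted p = 5.56e-06). Mag encodes myelin-associated glycoprotein, the Siglec of myelin. Its log2 signal was 4.19, 4.82 and 4.9 before IL-5, 4.57, 5.45 and 5.04 at day 4, and 6.32, 6.39 and 6.1 at day 10. Mag rose by 1.63 over the course (adjusted p = 3.25e-05), from a mean of 4.64, just under the lower quartile of all gene means.

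Of 22 other measured inhibitory receptors, 11 rose and 0 fell at day 4, and 7 rose and 2 fell at day 10. Their median log2 change was 0.87 and 0.47. They were listed as ITIM receptors, but Cd200r1 and Vsir carry no classical ITIM. Over all genes, 3.42% rose and 2.11% fell at day 4 and 4.83% and 9.4% at day 10, with medians of -0.11 and -0.07. These shares also stand beside the lists that follow, which were chosen with earlier results known and carry no test. The largest rises at day 4 were Lilrb4a (1.90), the collagen receptor Lair1 (1.85) and the CD200 receptor Cd200r1 (1.81). At day 10 they were Cd300lf (4.20, adjusted p = 2.52e-11), which binds lipids, the checkpoint receptor Vsir (2.46) and Lilrb4a (2.22), and the B cell receptor Cd72 (-2.87) and the lymphocyte receptor Btla (-1.83) fell. From day 4 to day 10, 3 rose and 6 fell, Lair1 (-1.55) among the latter, against 2.44% higher and 3.98% lower over all genes. Cd300lf, with means of 6.46 ± 0.110, 8.26 ± 0.191 and 10.66 ± 0.0466 (SD, n = 3), rose at both steps as Siglecf and Pirb did.

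Of 25 listed activating partners and adaptors, 14 were measured, and the Pira and Sirpb1 genes were not measured one by one. The PIR-A partners of PIR-B are thus not in these counts. Among the 14, 7 rose at day 4 and 7 at day 10, with 0 and 2 falling and medians of 1.01 and 1.04. The activating CD300 receptors Cd300ld (2.44) and Cd300c2 (2.09), and Cd300lb (1.67), led at day 4, and Cd200r4 (3.43), Cd300lb (3.27) and Cd300ld (1.93) at day 10, when Trem3 (-1.81) and Clec5a (-1.36) fell. Among enzymes and adaptors of ITIM signalling, 2 of 18 measured genes rose and 1 fell at day 4, and 2 rose and 2 fell at day 10. The phosphatases that ITIMs recruit did not reach 2-fold and are given for their role. SHP-1, Ptpn6, was at 10.94, 11.16 and 11.19 in the group means, with differences of 0.22 (adjusted p = 0.115) and 0.24 (adjusted p = 0.0627) against before IL-5. SHP-2, Ptpn11, differed by -0.35 (adjusted p = 0.0209) and -0.44 (adjusted p = 0.00329). The inositol phosphatase SHIP-1, Inpp5d, differed by 0.20 (adjusted p = 0.125) and 0.64 (adjusted p = 6.22e-05). The kinases Fgr (1.26) and Fyn (1.32) rose and Blk (-1.98) fell at day 4. At day 10 Fgr (1.67) and Btk (1.18) rose, and Blk (-2.59) and Fyn (-1.37) fell.

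Sialic acids form the Siglec ligands. Of 28 measured genes of sialic acid synthesis, sialyltransferases and related enzymes, 1 rose at day 4, the ganglioside sialyltransferase St8sia1 (1.25), and 0 fell. At day 10, 3 rose, the lysosomal sialidase Neu1 (1.86) and the sialyltransferases St3gal4 (1.55) and St3gal1 (1.41), and 6 fell, led by St3gal5 (-1.60), St8sia1 (-1.59) and Cmah (-1.46), which makes the glycolyl form of sialic acid. Their median change was 0.08 at day 4 and -0.43 at day 10.

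**Figure D5:**
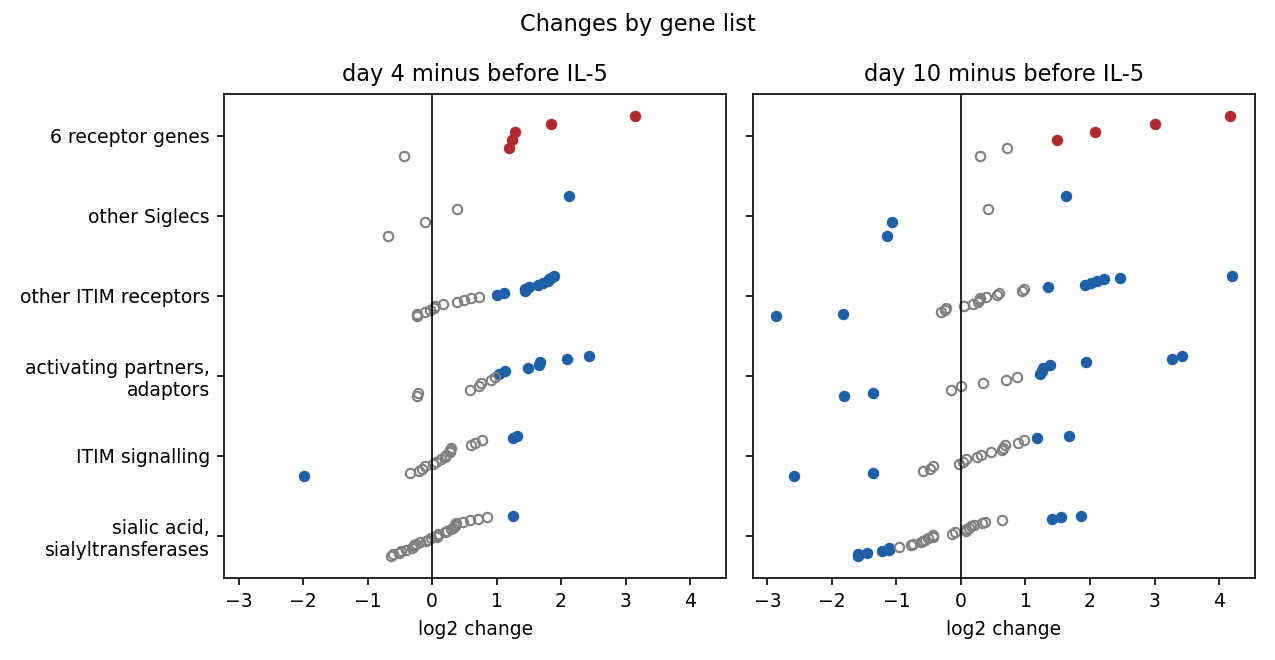
Log2 change against before IL-5 of each measured gene in the 6 receptor genes and in 5 related lists, at day 4 (left) and day 10 (right). Filled points passed the test with at least a 2-fold change and open points did not. In the list labelled other ITIM receptors 11 of 22 points are filled on the right side of 0 at day 4 and 7 at day 10. That list includes Cd200r1 and Vsir, which carry no classical ITIM.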

How the data were processed

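The authors deposited probe set signals on the log2 scale for 9 arrays, made with Affymetrix Expression Console 1.1.2637.26569 per the submitters' processing notes, and the sample descriptions, per the labels, name its default gene-level RMA summary. Other settings are not given in the sources used. RMA compresses changes of dim genes, and a shift common to most genes would be hidden in part. Of 35557 probe sets, 21789 named 1 gene, 1621 several and 12147 none in the probe table used. The brightest probe set per gene was kept, which left 19938 genes. All 6 members had means above the lower quartile of gene means, 4.66, and no detection filter was applied.

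Groups came from the sample titles. Changes were fitted by lmFit and eBayes of limma 3.58.1 under R 4.3.3 (3 group means, 6 residual and 6.47 prior degrees of freedom), two-sided, with Benjamini-Hochberg adjustment over 19938 genes. The comparisons with the cells before IL-5 share those arrays. A call needed an adjusted p under 0.05 and a 2-fold change, and the difference between intervals the adjusted p alone. Tested on simulated arrays of 19938 genes, the fit recovered planted log2 changes of 1.5 in 100% of cases for day 4 and 98% each for day 10 and between the days. Smaller changes were not planted, so calls nearer to 2-fold, such as Siglecf at day 4 (1.19) or Siglec1 between the days (-1.07), were not covered. The members and gene lists were chosen with earlier results of these data known. Named were all members, from each list up to 3 called genes of largest change in each direction, and the 5 genes with the highest Pearson r to each member. A few genes outside that rule are named for their role or after their value was seen, as stated there. PIR-A genes were listed and are not analysed here one by one, and some other listed genes are not reported here. Alternatives were scaling, a filter on dim genes, probe set choice, variance model, array weights, samples in the fit, the call rule, a replicate block and leaving out each array. The precision is limited by the number of arrays. No pairing of the samples by the replicate numbers of the titles was assumed in the fit as reported.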

Additional observations from a re-analysis of the deposited data

How the results depend on the processing

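Under the same call rule, the 19 alternatives to each comparison left 5 members higher and 0 lower at day 4, 4 higher and 0 lower at day 10, and 3 higher from day 4 to day 10. The number of members lower between the days was 1, and it was 0 after quantile normalization and 0 to 1 when single arrays were left out. By adjusted p alone, with no minimum fold, 1 member was lower at day 4 (Siglecg) and 3 were lower between the days (Siglec1, Siglece and Cd33). Signs of all member changes were the same in every alternative run. When arrays were left out in turn, the difference between intervals for Pirb ran from -0.93 to -0.49 and did not pass in 6 of 9 fits. For the other 5 members that difference passed in all 19 alternatives. With replicate numbers of the titles as a replicate block, 5 members were higher at day 4, 4 at day 10 and 3 from day 4 to day 10, and no member's call changed. Correlations of deviations between same-numbered arrays ran from -0.12 to 0.08, so no pairing by the numbers of the titles was seen. Differently numbered arrays were not compared, and with pooled marrow a pairing could leave little trace, so these correlations cannot settle it. The sample descriptions number some arrays differently, and that numbering was not checked. Among list genes, the rise of Fcgr2b, Fcer1g, Klra17 and Trem1 at day 4 lay near 2-fold and was lost in at least 1 alternative each, and so were those of Neu1 and Vsir between the days and the fall of St6galnac6 at day 10. After quantile normalization 57.8% of all calls at day 10 were falls, against 66.0% in the fit as reported and 63.7% to 68.1% in the other alternatives. Of the alternatives, 1 was chosen after seeing the data, the test of every named probe set on its own.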
